A study of Mus musculus with 2 samples.

Results

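Alternative promoters of protein-coding genes were examined by DNase-seq, which maps stretches of open chromatin as sites that the enzyme DNase I cuts, in mouse gastrocnemius muscle. Of 21911 protein-coding genes of the GENCODE M21 annotation, 2675 (12.2%) had annotated transcription starts in 2 or more groups with at least 1 pair over 5 kb apart, where starts within 1 kb of each other were joined into 1 group. These genes held 6272 start groups, of which 2675 were the most upstream group of their gene and 3597 were downstream groups. A start group was called open if each of the 2 libraries had a peak of its strict list within 500 bases of it. The rule for these genes used the annotation alone and no measured value, but it was set with earlier results of these libraries known. Of the other coding genes, 17253 had 1 start group and 1983 had several, none over 5 kb apart.

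Many genes can be transcribed from more than 1 promoter, and the choice of promoter sets the 5′ end of the transcript and often the N terminus of the protein. In muscle, genes of the contractile apparatus and of the membrane skeleton are textbook cases. Different forms of tropomyosin, myosin light chain, ankyrin and dystrophin begin at separate promoters of 1 gene. An active promoter is usually depleted of nucleosomes and therefore cut by DNase I, and bound proteins leave short protected stretches, called footprints, inside the cut region. Open chromatin at a start does not by itself show that a transcript is made there.

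Both libraries came from gastrocnemius of male B6CASTF1/J mice aged 14 days, and no treatment, genotype or age was contrasted. The mice are first-generation hybrids of a C57BL/6 and a CAST parent, and the parental alleles were not separated here. The labels mark the libraries as biological replicates but give both the same donor entry, along with the unexplained words "3x Males", so the spread between them may be partly technical. The strict lists held 82498 peaks in replicate 1 and 88198 in replicate 2, and the footprint lists 320456 and 384435 intervals. Read depth per library is not known from the files used. Each peak carries the authors' own signal value, whose scale was not stated. Signal was therefore compared between starts within a library, or as a percentile among all peaks of the library. Signal is given below for replicate 1 and then replicate 2.

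The muscle label was checked at the starts of marker genes. Of 5 muscle fibre genes, 4 were open, with a signal of 12.1 and 3.36 for Ckm (muscle creatine kinase) and 8.24 and 2.13 for Acta1 (skeletal actin), while Myh4, a fast myosin heavy chain, had no peak. Of the genes that mark other cells, both fibroblast genes were open (Col1a1 at 7.14 and 2.77), 2 of 3 endothelial genes were open (Kdr at 1.68 and 1.76), 3 of 4 neuronal genes were open (Map2 at 4.69 and 1.99), and the leukocyte genes Ptprc, Csf1r and Spi1 had no peak in either library. The tissue was measured in bulk, so fewer cells of a type and less opening per cell cannot be told apart. The part of the other cells in the patterns described here was not tested.

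The sequences in open chromatin at both starts of Tpm1 and of Dmd are shown because both genes were open at each of their starts and are known to make muscle and non-muscle proteins from them. They were read from the RefSeq GRCm38.p6 genome, which is build mm10. Each is the longest stretch outside annotated exons that lay inside the peaks of both libraries, written 5′ to 3′ on the strand of the gene, with capitals for bases inside footprints of both libraries. The 4 stretches lie at chr9:67043963-67044080 (Tpm1 downstream, minus strand), chr9:67049407-67049480 (Tpm1 upstream, minus strand), chrX:85048201-85048294 (Dmd downstream, plus strand) and chrX:82948761-82948869 (Dmd upstream, plus strand). Both Tpm1 stretches end at the base before the most 5′ annotated start of their group, the Dmd downstream stretch ends 119 bases before its start, and the Dmd upstream stretch ends 34 bases before its start.
Tpm1 downstream start: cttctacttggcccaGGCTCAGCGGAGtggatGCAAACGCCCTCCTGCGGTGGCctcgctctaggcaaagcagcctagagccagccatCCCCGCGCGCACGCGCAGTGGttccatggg
Tpm1 upstream start: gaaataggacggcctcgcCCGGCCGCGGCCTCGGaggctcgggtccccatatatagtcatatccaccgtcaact
Dmd downstream start: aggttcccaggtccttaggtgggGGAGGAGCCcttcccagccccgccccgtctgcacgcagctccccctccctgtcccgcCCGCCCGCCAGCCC
Dmd upstream start: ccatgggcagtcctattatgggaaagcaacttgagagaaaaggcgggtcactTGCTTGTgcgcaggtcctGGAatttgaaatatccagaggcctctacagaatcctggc
For Tpm1, CpG sites numbered 9 in the 118 bases of the downstream stretch and 8 in the 74 bases of the upstream one. For Dmd they numbered 6 in 94 bases downstream and 2 in 109 bases upstream. Bases in footprints of both libraries made up 55 of 118 bases at the Tpm1 downstream start and 16 of 74 at its upstream start. The Dmd upstream stretch holds a match to the CArG consensus of serum response factor, a regulator of muscle promoters. That match lies outside the bases in footprints of both libraries.

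Further downstream starts of muscle genes are shown because the known internal promoters of these genes lie there or because the upstream start had no peak. The stretches lie at chr1:75399921-75400060 (Speg, plus strand), chr4:9643741-9643860 (Asph, minus strand), chr1:66935355-66935490 (Myl1, minus strand), chr2:52335181-52335360 (Neb, minus strand) and chr1:43163962-43164060 (Fhl2, minus strand). All lie upstream of the most 5′ annotated start of their group except that of Myl1, which lies 147 to 282 bases inside it.
Speg downstream start: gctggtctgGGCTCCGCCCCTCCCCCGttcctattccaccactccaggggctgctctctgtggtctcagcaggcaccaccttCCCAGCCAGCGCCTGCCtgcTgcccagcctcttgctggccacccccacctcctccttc
Asph downstream start: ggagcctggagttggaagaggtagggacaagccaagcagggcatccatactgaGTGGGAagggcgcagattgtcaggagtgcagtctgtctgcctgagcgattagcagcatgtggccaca
Myl1 downstream start: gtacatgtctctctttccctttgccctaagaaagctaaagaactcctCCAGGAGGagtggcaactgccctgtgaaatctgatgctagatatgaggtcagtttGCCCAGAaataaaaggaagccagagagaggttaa
Neb downstream start: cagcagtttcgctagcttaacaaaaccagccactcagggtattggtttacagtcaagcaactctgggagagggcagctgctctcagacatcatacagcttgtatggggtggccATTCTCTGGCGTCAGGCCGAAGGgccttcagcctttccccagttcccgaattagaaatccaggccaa
Fhl2 downstream start: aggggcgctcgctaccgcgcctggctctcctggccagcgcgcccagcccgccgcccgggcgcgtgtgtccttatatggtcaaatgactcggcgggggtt
CpG sites numbered 3 in the Speg stretch, 2 in that of Asph, 0 in that of Myl1 and 4 in that of Neb, against 13 in that of Fhl2. The Neb stretch holds the E-box word CAGCTG, outside the bases in footprints of both libraries, and the Fhl2 stretch a match to the CArG consensus. No base of the Fhl2 stretch lay in footprints of both libraries.

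The last 3 stretches come from genes whose downstream start was open while the upstream start had no peak in either library. They lie at chr15:98108421-98108465 (Pfkm, plus strand), chr12:16589774-16589880 (Lpin1, minus strand) and chr16:92697329-92697540 (Runx1, minus strand), and each ends at the base before the start.
Pfkm downstream start: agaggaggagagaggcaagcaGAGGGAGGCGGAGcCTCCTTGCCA
Lpin1 downstream start: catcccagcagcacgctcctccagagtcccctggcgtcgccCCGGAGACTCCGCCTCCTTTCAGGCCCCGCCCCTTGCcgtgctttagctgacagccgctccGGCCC
Runx1 downstream start: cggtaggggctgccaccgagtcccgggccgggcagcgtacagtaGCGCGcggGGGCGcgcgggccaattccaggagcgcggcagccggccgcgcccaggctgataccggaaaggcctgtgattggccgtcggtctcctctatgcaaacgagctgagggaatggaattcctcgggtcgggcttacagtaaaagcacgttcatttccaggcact
The Runx1 stretch holds 23 CpG sites in 212 bases, the Lpin1 stretch 9 in 107 and the Pfkm stretch 1 in 45. The word CATTCC, known as the MCAT site bound by TEAD factors, occurs on the opposite strand of the Runx1 stretch, where the printed strand reads GGAATG. It lies outside the bases in footprints of both libraries. These 12 stretches were chosen after their values were seen.

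Across the 2675 genes, the most upstream start alone was the usual open start. In both libraries, 334 genes (12.5%) were open at downstream starts only, 482 (18%) at a downstream and the upstream start, 1000 (37.4%) at the upstream start only, and 859 (32.1%) at none. Taken 1 library at a time, downstream-only genes made up 12.3% in replicate 1 and 12.3% in replicate 2, and upstream-only genes 37.3% and 37.0%. Of the 334 downstream-only genes, 287 had no upstream peak in either library, and of the 1000 upstream-only genes, 923 had no downstream peak in either library. Altogether 518 genes (19.4%) had 2 or more open starts and 309 (11.6%) had every start open.

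**Figure D1:**
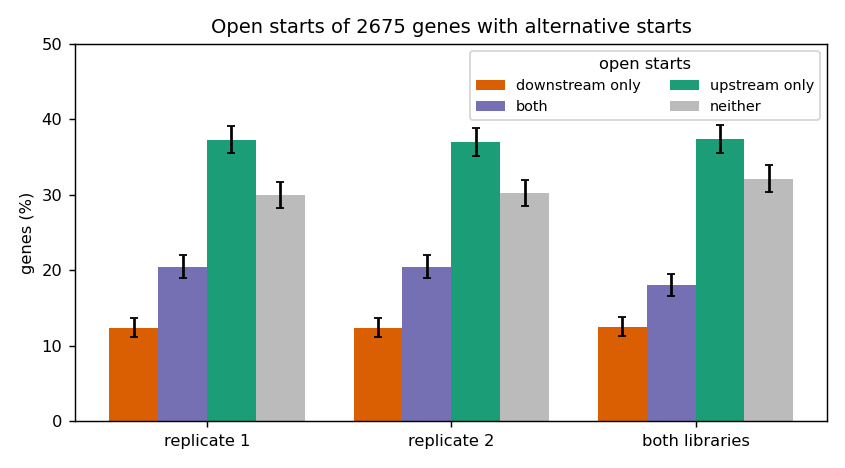
Share of the 2675 genes with alternative starts by which starts were open, in each library and in both libraries, with bars for the percent of genes and 95% Wilson intervals as error bars. Genes open at the upstream start only made up 37.4% in both libraries and genes open at downstream starts only 12.5%.

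Counted by start group, 926 of 3597 downstream groups were open (25.7%, 95% Wilson interval 24.3 to 27.2%), against 1482 of 2675 upstream groups (55.4%, 53.5 to 57.3%) and 50.8% of the start groups of all coding genes. These intervals cover counting error across starts only, and genes are not replicates. Windows of the same size moved 5 kb into the gene, clear of annotated starts by 2 kb, held peaks in both libraries at 3.85% of 2829 places for downstream groups and 2.66% of 2065 places for upstream groups. A peak in 1 library only was found at 166 downstream groups and 118 upstream groups. Any start was open in 67.9% of genes with alternative starts, against 61.4% of the 17253 genes with 1 start group. The upstream start taken alone was open less often than the start of 1-group genes, at 55.4% against 61.4%. The difference of 6.46 percentage points in any open start was 1.84 points with peaks at or above the median signal, 19.1 points with 1 pair of groups over 20 kb apart and 33.5 points with the comprehensive annotation. With that annotation 11.6% of downstream groups were open.

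The upstream start was the most often open one at each number of starts. In the 2009 genes with 2 start groups, 23.7% of downstream starts and 54.8% of upstream starts were open. In the 484 genes with 3 groups, the shares were 57.4%, 29.5% and 22.7% in order from the 5′ end, and in the 134 genes with 4 groups they were 56.0%, 29.9%, 29.9% and 33.6%. Within the genes with 2 groups, the downstream start was open in 281 of 1101 genes with an open upstream start (25.5%) and in 195 of 908 genes without (21.5%). The Wilson intervals of those shares were 23.0 to 28.2% and 18.9 to 24.3%, and the difference was not tested. The CpG ratio of the downstream starts, described below, had a median of 0.265 in the former genes and 0.216 in the latter. Downstream groups 5 to 10 kb from the upstream group were open in 19.1% of 873 cases, those 10 to 50 kb away in 25.5% of 1481, those 50 to 100 kb away in 30.4% of 474 and those beyond 100 kb in 29.7% of 585. The median distance of a downstream group was 21.4 kb (quartiles 8.74 and 62.3 kb), and 184 of the downstream groups (5.12%) lay within 5 kb of the upstream group.

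Open starts differed from closed ones in base composition. The CpG ratio, which is the observed over the expected number of CpG sites in the 1 kb around a group, had a median of 0.529 at open downstream groups and 0.218 at the other downstream groups, and of 0.748 at open upstream groups and 0.206 at the other upstream groups. Downstream groups as a whole were poorer in CpG, with a median of 0.255 against 0.544 for upstream groups and 0.612 for 1-group genes. At CpG ratios under 0.4 the open shares were close, at 12.0% of 2703 downstream and 12.1% of 1087 upstream groups, although the finer classes ran opposite ways, with 5.92% of downstream and 3.19% of upstream groups open under 0.2 and 17.3% and 23.0% at 0.2 to 0.4. At ratios of 0.4 or more, 67.2% of 894 downstream groups were open (64.1 to 70.2%), against 85.0% of 1588 upstream groups (83.2 to 86.7%). The gap between the positions was widest at ratios of 0.4 to 0.6, where 47.6% of 443 downstream and 64.1% of 370 upstream groups were open. At ratios of 0.6 to 0.8 the shares were 82.7% of 278 against 87.2% of 619, and at 0.8 or more 92.5% of 173 against 95.7% of 599. The class of 0.4 to 0.6 held 443 of the 894 downstream but 370 of the 1588 upstream groups, so the pooled shares also differ in their mix of classes.

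**Figure D2:**
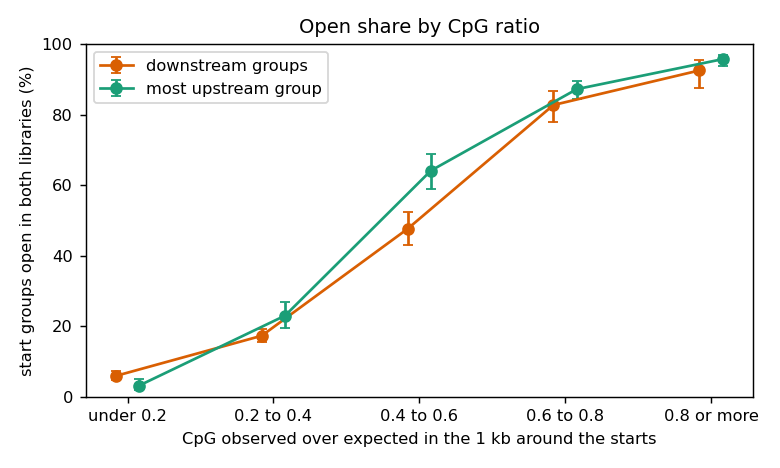
Percent of start groups open in both libraries (vertical axis, with 95% Wilson intervals) by the CpG ratio in the 1 kb around the starts (horizontal axis), for downstream groups and for the most upstream group. The share rises with the CpG ratio at both positions, and at ratios of 0.4 to 0.6 it is 47.6% downstream and 64.1% upstream.

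Annotation moved with openness too. Downstream groups with 1 annotated transcript were open in 20.4% of 2727 cases, those with 2 in 38.0% of 568 and those with 3 or more in 50.7% of 302, and for upstream groups the shares were 48.9%, 59.1% and 71.8%. A downstream group with a coding start of its own, so that its protein differs at the N terminus, was open in 34.6% of 1451 cases, against 19.8% of 2146 downstream groups that share their coding start with another group or have none. The same split gave 63.6% and 49.3% among upstream groups. Groups with a start of another gene within 500 bases were open in 56.2% of 160 downstream and 78.4% of 426 upstream cases, and at those groups the peak cannot be assigned to 1 of the genes. Groups from which an APPRIS principal isoform starts, the annotated main protein form, were open in 28.2% of 1848 downstream cases, against 23.1% of 1749 other downstream groups, and in 56.9% of 2143 upstream cases, against 49.2% of 532 other upstream groups.

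In 1818 genes a peak was present at some start in each library, and the start with the highest signal was downstream in 508 of them (27.9%) and the most upstream in 1243 (68.4%), the same group leading in both libraries. With the comprehensive annotation the downstream share was 15.7%. The leading start differed between the libraries in 67 genes (3.69%). Where a downstream start led, it carried an APPRIS principal isoform in 327 of 508 genes (64.4%), and in 180 (35.4%) the principal isoforms started only elsewhere. Where the upstream start led, the counts were 1083 of 1243 genes (87.1%) and 157 (12.6%). Among all groups, open or not, 51.4% of downstream and 80.1% of upstream groups carried such an isoform.

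In the 482 genes with both kinds of start open, the downstream signal was more often the lower one. The median log2 ratio of the strongest downstream start over the upstream start was -0.42 in replicate 1 (quartiles -1.58 and 0.93) and -0.39 in replicate 2 (-1.61 and 0.71), and the median over genes of the mean of both libraries was -0.52. That median was -0.24 with peaks at or above the median signal and -0.85 with the comprehensive annotation. The downstream start was over 2-fold higher in both libraries in 76 genes and over 2-fold lower in both in 158, and 136 genes stayed within 2-fold in both. The sign differed between libraries in 47 genes. Across these genes the ratios of the libraries had a Pearson r of 0.919 (n = 482 genes, which share the same libraries and are not replicates), and the median SD between libraries was 0.32 on the log2 scale. In the 281 genes with just 2 groups, where there was no choice of downstream start, the medians were -0.52 and -0.43.

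**Figure D3:**
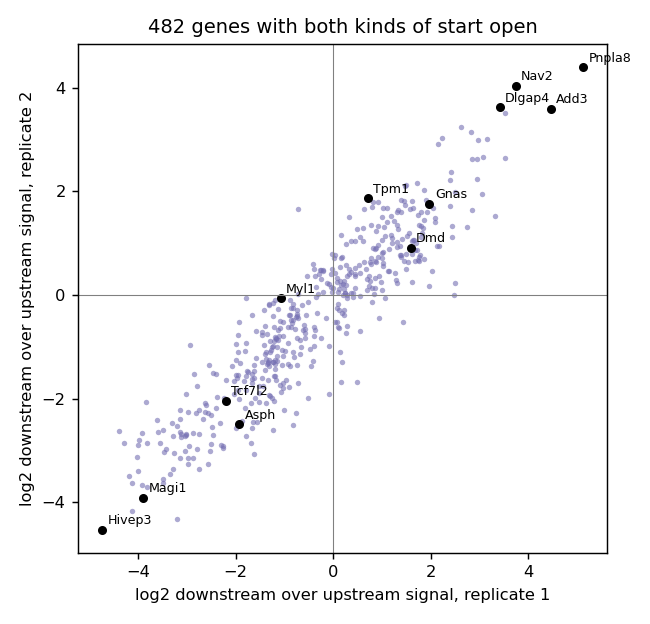
Log2 ratio of downstream over upstream peak signal in replicate 1 (horizontal axis) and replicate 2 (vertical axis) for the 482 genes with a downstream and the upstream start open, 1 point per gene and 12 genes named in black. The points follow the diagonal, with Pnpla8 at 5.12 and 4.40 and Hivep3 at -4.74 and -4.53.

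The 5 genes with the largest ratios, ranked by the library with the smaller log2 ratio, had upstream peaks of at most 1.74 in replicate 1 and 0.895 in replicate 2. Pnpla8, a mitochondrial phospholipase, had 20.6 and 10.2 at a start 47.8 kb downstream and 0.591 and 0.482 at its upstream start. Nav2, a neuron navigator protein, had 9.11 and 5.06 at a start 287.1 kb downstream and 0.680 and 0.307 upstream. Ndel1, a dynein regulator, had 20.01 and 8.64 downstream and 1.74 and 0.757 upstream. Add3, the membrane skeleton protein gamma-adducin, had 24.6 and 10.8 at a start only 2.2 kb downstream and 1.11 and 0.895 upstream. Its mean log2 ratio was 4.03 with that start and 0.28 when downstream groups within 5 kb of the upstream one were left out. Dlgap4, a postsynaptic scaffold protein, completed the 5 largest, with 10.9 and 8.35 at the third start and 1.02 and 0.674 upstream. A start of Gm47096 lies within 500 bases of the open downstream start of Pnpla8, and a start of 4930405A21Rik within 500 bases of that of Dlgap4, and their upstream starts lie as close to starts of Gm2027 and Gm14169. With windows of 250 bases Pnpla8 was no longer open at both kinds of start. In these 5 genes both libraries put the downstream start at least 3.42 above the upstream one on the log2 scale.

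At the other end, the downstream start was the weak one in the 5 genes picked by the library with the smaller absolute log2 ratio. Hivep3, a zinc finger protein, had 0.903 and 0.427 downstream and 24.1 and 9.87 upstream. Usp20, a deubiquitinase, had 1.08 and 0.500 downstream and 19.03 and 8.97 upstream, next to a start of BC005624. Magi1, a junction scaffold, had 0.502 and 0.257 at a start 369.6 kb downstream and 7.50 and 3.87 upstream. The strong start was CpG-rich in each of these (0.828, 0.765 and 1.01), and the weak one was at 0.542, 0.284 and 0.376. Ap1g1, a subunit of a clathrin adaptor, and Dop1b had mean log2 ratios of -3.80 ± 0.18 and -3.76 ± 0.08 (SD, n = 2 each), and some genes outside these 5 had means as low. With windows of 250 bases Hivep3, Usp20, Magi1 and Ap1g1 were no longer open at both kinds of start.

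Genes with 1 kind of start open included some of the strongest peaks of the libraries. Among downstream-only genes without an upstream peak in either library, Glo1, the glyoxalase that detoxifies methylglyoxal, had the highest percentile, with 26.6 and 11.7 at a start 14.2 kb downstream. Usp37, a deubiquitinase, followed with 21.5 and 10.7, but its open start lies within 500 bases of a start of Cnot9. Tollip, a Toll-interacting adaptor, had 19.4 and 9.71. Tsga10 had 18.6 and 9.71 at a start only 1.4 kb from its upstream one and within 500 bases of a start of Gm26805. The downstream peak of Oser1 stood at the 99.4th and 99.6th percentile, and a start of 2900093K20Rik lies within 500 bases of it. Among upstream-only genes, Ctdsp2, a phosphatase of the polymerase tail, led with 31.9 and 12.8 and had no peak at its start 16.9 kb downstream, which lies within 500 bases of Mir26a-2. Fzr1, an activator of the anaphase-promoting complex, had 28.7 and 13.3, Hdac4, a histone deacetylase that represses muscle genes, 23.7 and 9.93, and Pja2, a ubiquitin ligase, 23.0 and 9.80. The upstream peak of Peak1, a pseudokinase, stood at the 99.9th percentile in both libraries.

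Open starts of both positions carried footprints. At least 1 footprint overlapped the strongest peak at 98.2% and 97.5% of open downstream groups and at 98.5% and 98.4% of open upstream groups. Footprints per 100 bases of peak numbered 1.71 and 1.79 at downstream groups, against 1.85 and 1.97 at upstream groups and 1.94 and 2.07 at 1-group genes. Signal was lower downstream as well, with medians of 2.92 and 1.54 at open downstream groups, 4.93 and 2.68 at open upstream groups and 6.42 and 3.64 at 1-group genes. With the open groups of a library cut into 4 classes of equal size by signal, the positions were close. In the lowest class there were 1.30 and 1.34 footprints per 100 bases downstream and 1.22 and 1.33 upstream, and in the highest 2.08 and 2.44 downstream and 2.13 and 2.40 upstream. The strongest peaks of the libraries overlapped each other at 881 of 926 open downstream groups and 1419 of 1482 open upstream groups.

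Sequence words of muscle regulators were searched on both strands in the 300 bases centred on the strongest peak of replicate 1. A group was counted if it held at least 1 match. CAGCTG, an E-box bound by MyoD and related factors, occurred at 25.5% of open downstream and 16.5% of open upstream groups, against 17.6% of all 13984 open start groups of coding genes. CATTCC occurred at 11.4% of downstream and 9.65% of upstream groups (9.75% of all), and TATAAA at 4.64% and 3.31% (4.25% of all). The MEF2 consensus occurred at 2.05% and 1.15% (1.07% of all), and the CArG consensus at 1.19% and 0.945% (1.06% of all). With CpG ratios under 0.4, CAGCTG was present at 35.7% of 325 downstream, 32.6% of 132 upstream and 35.4% of all 1343 such open groups. A match of letters is a description and not a bound site.

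Of 35 genes known from textbooks for alternative promoters, 29 met the rule, and 10 of these were open at downstream starts only, 11 at both kinds, 6 at the upstream start only and 2 at neither. The shares over all 2675 genes were 12.5%, 18%, 37.4% and 32.1%. Of 29 contractile and cytoskeletal genes, 5 were open downstream only, 18 at both kinds, 4 upstream only and 2 at neither, and 39 of their 65 downstream groups were open (60.0%, against 25.7% over all). The 31 transcription factors had 4, 17, 8 and 2 genes in the same order, the 13 metabolic genes 5, 3, 3 and 2, and the 21 growth and signalling genes 8, 7, 5 and 1. The 9 genes of excitation and calcium handling were open upstream only in 6 cases, and 1 each had the other patterns. The 8 genes of RNA processing had 3, 2, 2 and 1 genes, the 12 neuronal genes 4, 3, 2 and 3, and the 5 genes of endothelial, immune and stromal cells 2, 0, 1 and 2. The share of downstream groups open was above 25.7% in each list except excitation and calcium (18.2%). Apart from that list and the contractile one, it ran from 29.0% (neuronal) to 51.7% (textbook). Contractile downstream groups had a median CpG ratio of 0.340, against 0.255 over all. The lists also differ in downstream groups per gene, and no share was adjusted for either. The lists overlap and were drawn up with earlier results of these libraries known, so their shares are a description.

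**Figure D4:**
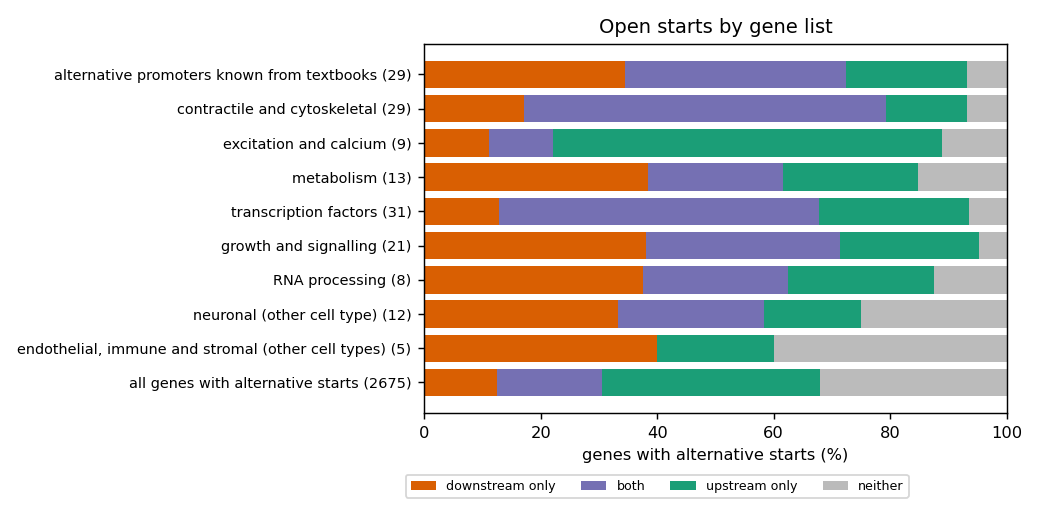
Share of the genes with alternative starts in each list (number in brackets) by which starts were open in both libraries, with all 2675 genes in the bottom row. Contractile and cytoskeletal genes were open at both kinds of start in 62.1% of cases and all genes in 18%. The lists differ in downstream groups per gene and in CpG ratio, and the shares were not adjusted for these.

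Tropomyosins lie along the actin filament and gate contraction. Of their genes, Tpm1 and Tpm3 met the rule for alternative starts, and both were most open at the internal one. Tpm2 and Tpm4 did not meet the rule. Tpm1 had 14.9 and 8.74 at its downstream start, 5.2 kb into the gene, and 9.11 and 2.39 at its upstream start, which gives the long forms, those of muscle included. Both libraries put the downstream start higher, with a mean log2 ratio of 1.29 ± 0.82 (SD, n = 2). Tpm3 had 9.54 and 3.27 at its downstream start, from which the short non-muscle forms are made, and no peak in either library at its upstream start, 6.9 kb away, which gives the slow muscle form. The CpG ratio of those starts was 0.728 and 0.132.

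Myl1, which makes the fast alkali myosin light chains from 2 promoters, was open at both. Its downstream start, 9.5 kb away and known for the shorter chain, had 1.17 and 0.817, and its upstream start had 2.46 and 0.853. The peaks of the libraries at the upstream start did not overlap each other, although both lay within 500 bases of it, and the difference between starts was small in replicate 2, at a log2 ratio of -0.06 against -1.07 in replicate 1. Neb, the giant thin-filament protein nebulin, had 2.19 and 1.09 at a start 3.7 kb downstream and no peak at its upstream start. Fhl2, a LIM protein of heart and muscle, had 2.21 and 1.43 at its downstream start and none upstream. Sorbs2, an adaptor of the Z-disc, had peaks in both libraries only at a start 119.9 kb downstream. Its values there were 0.379 and 0.312, at the 3.20th and 4.65th percentile of all peaks. The strongest start of Sorbs2 was group 2 in replicate 1 and group 3 in replicate 2, so another start was stronger in at least 1 library.

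Dmd encodes dystrophin, which links actin to the muscle membrane. Its downstream start, 2099.5 kb into the gene in the stretch from which the short dystrophin of many tissues is made, had 1.78 and 0.693, and its upstream start for full-length dystrophin had 0.591 and 0.367. Both starts had 2 to 4 footprints per library. With peaks at or above the median signal, Dmd was no longer open at both kinds of start, nor were Ank1 and Myl1. Ank1, ankyrin, was open at 3 of 4 starts, with the highest values of 2.17 and 0.913 at the last one, 163.9 kb downstream, where the small ankyrin of the sarcoplasmic reticulum is known to begin. Its upstream start had 1.26 and 0.601. Plec, the cytolinker plectin, which is known for many alternative 5′ exons, was open at 6 of 7 starts and most at the fifth, with 8.32 and 4.01. Its most upstream start had a peak of 1.24 in replicate 2 only. Speg, a kinase of striated muscle, had 5.61 and 1.29 at the third start and 4.88 and 1.29 at its upstream start, so neither led in both libraries, and the upstream start lies within 500 bases of a start of Gm15179. Mylk, the myosin light chain kinase, had no peak at either start.

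**Figure D5:**
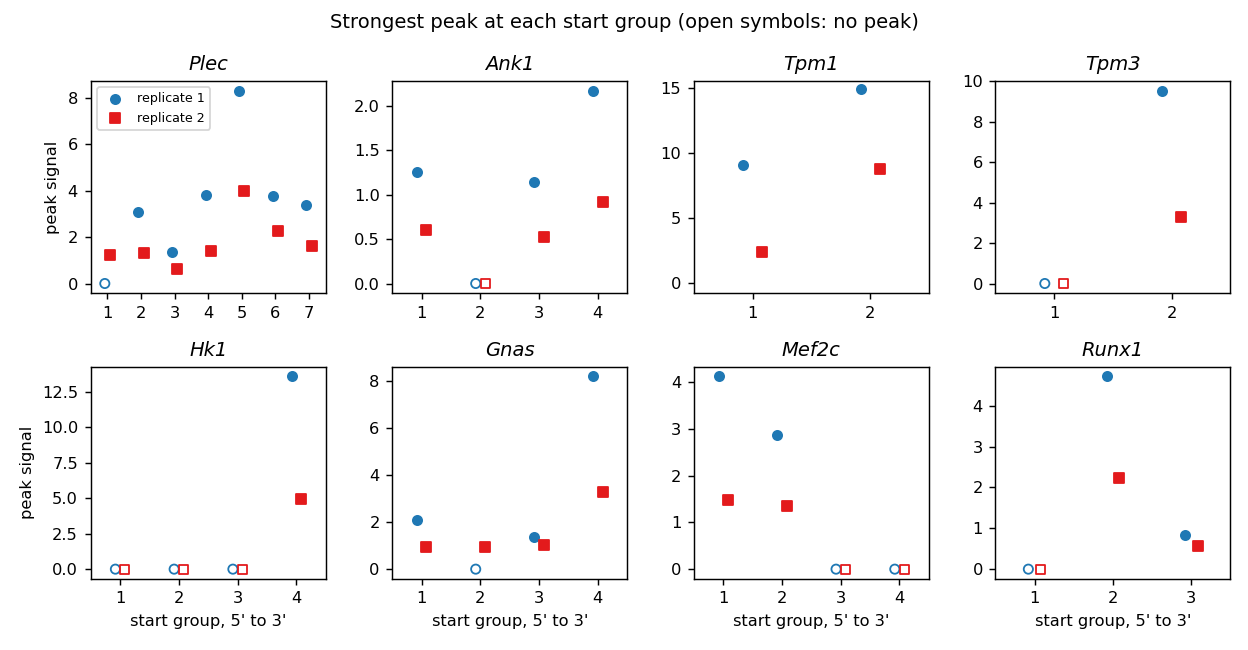
Signal of the strongest peak (vertical axis, authors' units, a separate scale per panel) at each start group from 5′ to 3′ (horizontal axis) in replicate 1 (circles) and replicate 2 (squares) for 8 genes, with open symbols at 0 for starts without a peak. Hk1 and Tpm3 had a peak at the last start only, and Plec at 6 of its 7 starts in both libraries.

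For excitation and calcium, Asph, which makes aspartyl hydroxylase and the calcium-store protein junctin, had 3.18 and 0.867 at its downstream start and 12.1 and 4.88 at its upstream start, a mean log2 ratio of -2.21 ± 0.40 (SD, n = 2). A start of Gm25677 lies within 500 bases of the upstream start. The downstream CpG ratio was 0.117 and the upstream one 0.770. Camk2a, a calcium/calmodulin kinase abundant in brain, was open in muscle only at its downstream start, with 4.64 and 1.40 and a CpG ratio of 0.149. That start has coding starts of its own, and a muscle anchoring protein, alpha-KAP, is known to be made from within this gene. Nos1, the nitric oxide synthase of nerve and muscle, was open at the upstream of its 2 starts, with 3.63 and 1.23.

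Metabolic genes included several open only inside the annotated gene. Hk1, a hexokinase, had 13.6 and 4.96 at the last of its 4 starts, 39.4 kb downstream, and no peak at the other 3, and a start of the antisense gene Hk1os lies within 500 bases of the open one. Lpin1, a phosphatidate phosphatase and coactivator, had 7.35 and 4.61 at the last of 3 starts and none at the others. Pfkm, the muscle phosphofructokinase, had 6.28 and 2.35 at its downstream start and none upstream, although the CpG ratios of the starts were 0.484 and 0.597. Pfkfb2, a regulator of phosphofructokinase, had 5.83 and 3.14 at its second start, next to a start of Gm29427. Cd36, a fatty acid transporter, was open weakly at its second start, at 0.669 and 0.601. The opposite held for Pcx, pyruvate carboxylase, and Acsl1, which activates fatty acids. Pcx had 16.1 and 7.31 and Acsl1 14.2 and 6.78 at the upstream start, and in neither gene did a downstream start have peaks in both libraries. Acacb, the muscle acetyl-CoA carboxylase, was open at the upstream start with 2.22 and 0.904, and Acaca, its cytosolic relative, had no peak at either start.

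Among transcription factors, Runx1 and Runx2, which are known for a distal and a proximal promoter, were closed at the distal start and open at the proximal one. Runx1 had 4.72 and 2.24 at a start 128.8 kb downstream, and the third group had 0.847 and 0.569. Runx2 had 2.14 and 1.31 at a start 77.6 kb downstream, next to a start of Runx2os1. Nfic had 5.29 and 3.21 at the second and 3.67 and 1.62 at the third start, and Sox6, which represses slow fibre genes, 2.61 and 1.20 at the second of 5. Mef2c, a factor that drives muscle genes, was open at its 2 upstream groups. Its second start had 2.87 and 1.34 and its most upstream start 4.12 and 1.47, and the third and the fourth had no peak. Mitf, known for tissue-specific 5′ exons, was open only at the most upstream of 4 starts, with 7.98 and 3.72. Tcf7l2, an effector of Wnt signals, had 1.65 and 1.23 downstream and 7.62 and 5.07 upstream. The nuclear receptors Esrrg and Pparg were weaker. Esrrg had 1.65 and 0.619 downstream and 0.663 and 0.528 upstream. Pparg had 0.502 and 0.399 in a group 1.3 kb downstream and 1.27 and 0.986 upstream. With downstream groups within 5 kb of the upstream one left out, Pparg was no longer open at both kinds of start. Its mean log2 ratio was -1.32, and -0.65 with windows of 1000 bases.

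Imprinted and growth factor genes were open at some of their starts. Gnas, which makes the stimulatory G protein subunit, had 8.22 and 3.27 at the fourth of 4 starts, 45.7 kb downstream, and 2.09 and 0.963 at its upstream start, a mean log2 ratio of 1.87 ± 0.15 (SD, n = 2). Igf2, a fetal growth factor, had 3.14 and 1.63 at the third start, next to a start of Igf2os, and 1.03 and 0.867 at the fourth, and no peak at the 2 starts upstream of them. Grb10, an adaptor that restrains insulin signals, was open at its upstream start, with 3.08 and 1.44. Bdnf, a neurotrophin, was open at the fourth of 5 starts with 1.92 and 1.28. Nrg1, a ligand at the nerve-muscle synapse, had 2.39 and 1.17 at a start 874.6 kb downstream, and its upstream start had a peak of 0.390 in replicate 1 only.

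Genes with most starts varied in how many were open. Pde4d, a cAMP phosphodiesterase, had 9 start groups, the largest number, and 4 of them were open, at 462.5, 1032, 1248.9 and 1270.9 kb from the upstream group, with the highest values of 5.64 and 1.60 at the seventh. Its paralogue Pde4b had 7 groups with 1 open in both libraries, at 2.97 and 2.01. Tcf4, a partner of MyoD, had 6 of 8 groups open, 8.36 and 4.51 at the seventh and 9.61 and 4.34 at the upstream one. Dab2ip, a Ras-inhibiting protein, had all 6 groups open, between 2.33 and 5.28 in replicate 1 and between 0.936 and 1.87 in replicate 2. Ablim1, an actin-binding LIM protein, had 4 of 5 groups open, with the highest values of 3.17 and 2.04 at the fourth. Flg, the skin protein filaggrin, had 8 groups and no peak at any.

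Regulators of splicing and genes of other cells followed no single order. Mbnl1, which drives the postnatal splicing switch in muscle, had 5.72 and 2.67 at its second start, CpG ratio 0.956, 1.25 and 0.688 at the third and no peak at its upstream start. Celf2 was open at the second start (1.03 and 0.931) and at the fourth (2.67 and 0.908), and Rbfox1, a splicing factor of muscle and brain, at the third, 720.7 kb downstream, with 1.77 and 0.821. Of genes listed for neurons, Nrxn3 had 1.86 and 0.780 at a start 1018 kb downstream, and Cntnap2 had 0.541 and 0.537 at a start 2184.3 kb downstream, both with no upstream peak. Prx, periaxin of Schwann cells, had 9.69 and 5.66 at its downstream start, next to a start of Gm15541, and Lipe, a lipase of fat cells, 5.35 and 2.50 at a start 2.3 kb downstream. In the growth list, Ptprd, a receptor phosphatase, had 3.03 and 1.55 at its second of 5 starts.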

How the data were processed

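DNase-seq peaks and footprints of 2 libraries of 1 group were used, and reads were not analysed. The peak signal is the authors' own value, as deposited, and the sources used here do not say how it was scaled or name the aligner, the peak and footprint callers or their thresholds. Per the file headers, each list was derived from the alignment of 1 library to mm10, not from pooled reads. Replicate 1 was sequenced on 2 instrument models, per the labels. The deposited footprint score is constant at 0.01, so only positions were used, and the FDR tracks were not used here.

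Starts came from the basic set of GENCODE M21, keeping the longest of coding genes with the same symbol. Starts within 1000 bases were joined, and the strongest peak overlapping a window of 500 bases beyond the group gave its signal. Downstream groups are all but the most upstream one, also those within 5 kb of it. In a gene with several open downstream groups, the ratio used the one with the highest mean percentile. Each peak list pair differed in size (138117 and 139545 peaks in the permissive lists), and the shorter, strict list was used. Shares have 95% Wilson intervals. No test was run, since 1 group gives no contrast.

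Named genes met a fixed rule, which took textbook cases, up to 4 downstream-only genes per list, and up to 5 genes each with most groups, most open groups, the highest percentile or the extreme ratios, 71 genes in all. The members, lists and rule were chosen with earlier results of these data known. Alternatives varied window, peak list, peak strength, library, annotation and separation. The scripts were tested on simulated data. Python 3.11.15, numpy 2.4.6, pandas 2.3.3, scipy 1.17.1, pysam 0.24.0 and matplotlib 3.10.9 were used.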

Additional observations from a re-analysis of the deposited data

How the results depend on the processing

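No paired analysis was possible because the libraries form 1 group. Values are given in the order genes open downstream only (12.5% in the report), downstream groups open (25.7%), genes led by a downstream start (27.9%), the median log2 ratio of downstream over upstream (-0.52), the ratio of footprints per base of downstream over upstream (0.918) and the open share of genes with alternative starts minus that of 1-group genes (6.46 percentage points), leaving out those that moved by less than the SD between libraries. A window of 250 bases gave 12.4%, 23.6%, 27.4% and 5.68 points, and 1000 bases 12.3%, 28.4%, 27.7% and a ratio of -0.41. The permissive list gave 11.6%, 30.9%, 27.8%, a footprint ratio of 0.881 and 7.18 points. Peaks at or above the median signal gave 11.1%, 18.5%, 27.2%, -0.24 and 1.84 points. Requiring every neighbouring pair over 5 kb apart gave 10.8%, 24.7%, 25.0% and 5.62 points, and 1 pair over 20 kb apart 14.3%, 28.9%, 0.897 and 19.1 points. Without groups near another gene's start the values were 12.8%, 24.1%, 29.2%, 0.940 and 8.94 points. The comprehensive annotation, added after seeing the data, gave 8.99%, 11.6%, 15.7%, -0.85, 0.861 and 33.5 points, and leaving out downstream groups within 5 kb of the upstream one, also added then, 11.7%, 25.3%, 26.4% and 5.71 points. Without replicate 1 or replicate 2, ranges were 12.3 to 12.3%, 28.3 and 27.8%, 30.1 and 30.3%, -0.40 and -0.52, 0.907 and 0.928, and 6.87 and 6.68 points. Restriction to protein-coding transcripts moved none of them beyond that SD, but it could change little. Every start group of these genes already held a protein-coding transcript. The log2 ratio ranged from -0.01 without replicate 1 to 0.20 without replicate 2 for Speg, and from 0.05 to -0.20 for Tcf4, changing sign without replicate 1. Of the other values recomputed, 248 moved by less than the SD between libraries and 47 by more, with the sign kept, among them Add3 (4.03, against 3.10 with 1000 bases and 0.28 without downstream groups within 5 kb). Part of the 248 was fixed in advance, since the log2 ratio of a gene is the mean of both libraries. While the same starts are compared, leaving out 1 library moves that mean by less than their SD. Of 24 log2 ratios of named genes, those with no value, because the gene no longer met the rule or was not open at both kinds of start, numbered 5 with 250 bases, 16 with peaks at or above the median signal, 6 with every pair over 5 kb apart, 5 with 1 pair over 20 kb apart, 5 without groups near another gene's start, 1 with the comprehensive annotation and 1 without downstream groups within 5 kb. The causes were not tested. Limits are the SD from only 2 libraries, an unknown read depth and signal scale, and the dependence of every share on which starts are annotated.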

Other observations

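Internal starts poor in CpG carried strong peaks in some genes. Ranked by mean percentile among open downstream groups with a CpG ratio under 0.4 and no other gene's start within 500 bases, genes chosen after their values were seen, Tbc1d14, a regulator of autophagy, led with 11.5 and 5.03 at the fourth of 4 groups, 54.7 kb downstream, where the CpG ratio was 0.248, and its upstream start had no peak. Phf21a, part of a histone demethylase complex, had 9.64 and 4.75 at its second start, and Sh2d3c 8.42 and 3.98 at its downstream start, both without an upstream peak. Il11ra1, an interleukin receptor subunit, had 9.98 and 3.24 at its second start. Mafk, a small Maf transcription factor, had 9.14 and 3.15 at a downstream start with a CpG ratio of 0.246 and 12.2 and 7.67 at an upstream start with a ratio of 0.853.

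Some list members outside the rule for named genes, also chosen after their values were seen, were open at downstream starts. Lmna, the nuclear lamin A/C gene, had 13.2 and 6.78 at its downstream start and 8.24 and 4.76 upstream. Tbc1d1, a regulator of glucose uptake in muscle, had 8.92 and 3.57 at a start 70.2 kb downstream and 3.41 and 1.00 upstream. Rora, a nuclear receptor, had 6.61 and 2.93 at a start 635.9 kb downstream and 1.91 and 0.968 upstream. Sgk1, a kinase, had 18.1 and 8.42 at the fourth of 4 starts, and its upstream start had a peak of 0.635 in replicate 1 only. Tead4, a muscle transcription factor, had 5.23 and 2.04 downstream, where the CpG ratio was 0.177, and 3.25 and 1.65 upstream.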
